A study of Mus musculus with 6 samples.

Results

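The genes described here are 43 genes of autophagy and of the lysosome, taken by name from a list that covers the kinase complex that starts autophagosome formation, the lipid kinase complex, the conjugation enzymes, the Atg8 proteins, the cargo receptors, the mitophagy genes, the transcription factors Tfeb and Tfe3, lysosomal membrane proteins and cathepsins. The list was chosen by function, but with earlier results of these data known. Of the 43, 39 had a probe of their own among the 20204 genes with such a probe. Atg7 and Atg16l1 were listed only on probes that carry another gene as well, and Optn and Park2 had no probe of their own listed, so these 4 genes have no value.

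Islets purified by collagenase digestion from 3 mTR-/-G4 and 3 wild-type mice were each hybridized to an exon array (Affymetrix), and the samples of each genotype carry the letters a, b and c. All mice were C57BL/6 males of 15 months with no treatment given in the labels. mTR-/-G4 mice lack the telomerase RNA and belong to the fourth generation bred without it, and they have short telomeres. The comparison asks how islets with short telomeres differ in gene expression from wild-type islets. Telomerase RNA is absent from every cell of these mice, so the genotype is not limited to the islet. Its own gene, Terc, is listed on 1 probe, which it shares with another gene, so the deletion could not be checked on the arrays.

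In autophagy, a double membrane grows around cytoplasm, protein aggregates or organelles and closes into an autophagosome, which fuses with a lysosome where the content is degraded by acid hydrolases. Growth of the membrane needs Ulk kinase signalling, phosphoinositide 3-phosphate made by the Vps34 kinase, and conjugation of Atg8 proteins such as LC3 to lipid. Pancreatic beta cells depend on the pathway to turn over mitochondria and secretory granules, and mice without Atg7 in beta cells lose beta cell mass and insulin secretion.

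Tfeb and Tfe3 bind short E-box sequences in promoters of lysosomal and autophagy genes. The promoters of Atg3, the member with the largest difference, and of Ctsd and Lamp1, which held several matches, are shown because they carry the letters CACGTG. Each is the 130 bases before the start site in RefSeq, build GRCm38.p6, written 5′ to 3′ on the strand of the gene, and capitals mark CACGTG or its longer form TCACGTGA, which contains it. Both motifs read the same on both strands.
Atg3, chr16:45158699-45158828, plus strand: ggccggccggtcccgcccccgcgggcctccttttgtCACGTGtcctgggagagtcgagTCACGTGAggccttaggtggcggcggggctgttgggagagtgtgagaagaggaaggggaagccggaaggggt
Ctsd, chr7:142387828-142387957, minus strand: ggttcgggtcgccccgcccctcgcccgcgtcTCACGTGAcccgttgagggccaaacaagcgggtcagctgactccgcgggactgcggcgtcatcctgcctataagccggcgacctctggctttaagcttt
Lamp1, chr8:13159031-13159160, plus strand: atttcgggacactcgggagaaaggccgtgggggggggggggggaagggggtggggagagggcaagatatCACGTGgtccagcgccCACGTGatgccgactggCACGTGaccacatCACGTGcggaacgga

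CACGTG was present in 7 of the 40 promoters listed for 34 of the 43 genes (17.5%), those of Atg7, Bnip3, Ctsd, Lamp1, Atg5, Ctsl and Atg3, against 7.15% of 32851 promoters of the same length, 300 bases. TCACGTGA was present in 2 of the 40 (5%), those of Atg3 and Ctsd, against 0.974% of all promoters. Ctsd held a further CACGTG 245 bases before its start, outside the stretch shown. Of the 12 members with an unadjusted p under 0.05 below, all 12 had a promoter in the table and 1, Atg3, held CACGTG. A match describes the sequence and does not show that a factor binds there.

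Members passed the study's threshold about as seldom as all genes did, and more were lower than higher in mTR-/-G4 islets by p alone. At that threshold, a change of more than 1.5-fold with an unadjusted p under 0.05, 0 of the 39 were higher in mTR-/-G4 islets, against 1.94% of all genes, and 1 was lower, Atg3, against 1.64% of all genes. By p alone, 10 members were lower (25.6%), where 7.96% of all genes were, and 2 were higher (5.13%), where 14.2% of all genes were. The members are bright genes, and bright genes leaned downward in mTR-/-G4 islets. Among genes above the median signal, 13.9% were lower and 6.33% higher by p alone, and of the 38 members there 10 (26.3%) were lower and 1 was higher.

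In 13 members (33.3%) all 3 mTR-/-G4 samples lay below all 3 wild-type samples, which was so for 12.2% of all genes, and in 3 members (7.69%) they lay above, which was so for 25.0% of all genes. Among genes above the median signal these shares were 21.3% below and 10.1% above, and of the 38 members there 34.2% lay below and 5.26% above. Those 13 were 9 of the 10 lower members, all but Atg3, together with Ulk2, Rb1cc1, Wipi2 and Lamp1, and the 3 were Ulk1, Atg9b and Gabarapl2. The median difference of the members was -0.12 on the log2 scale (mTR-/-G4 minus wild-type), against -0.06 for genes above the median signal and 0.10 for all named genes. No member had an adjusted p under 0.05 in limma (Benjamini-Hochberg over 34502 probes), where 12 had an unadjusted one, and the smallest was 0.116, of Ambra1. Below, a member passed by p where its unadjusted p in limma was under 0.05, and the p printed is the adjusted one. Of all probes, 2.90e-03% passed that adjusted p. The 95% interval of the difference lay within 1.5-fold in either direction for 25 of the 39 members (64.1%), and for 63.5% of all named genes.

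**Figure D1:**
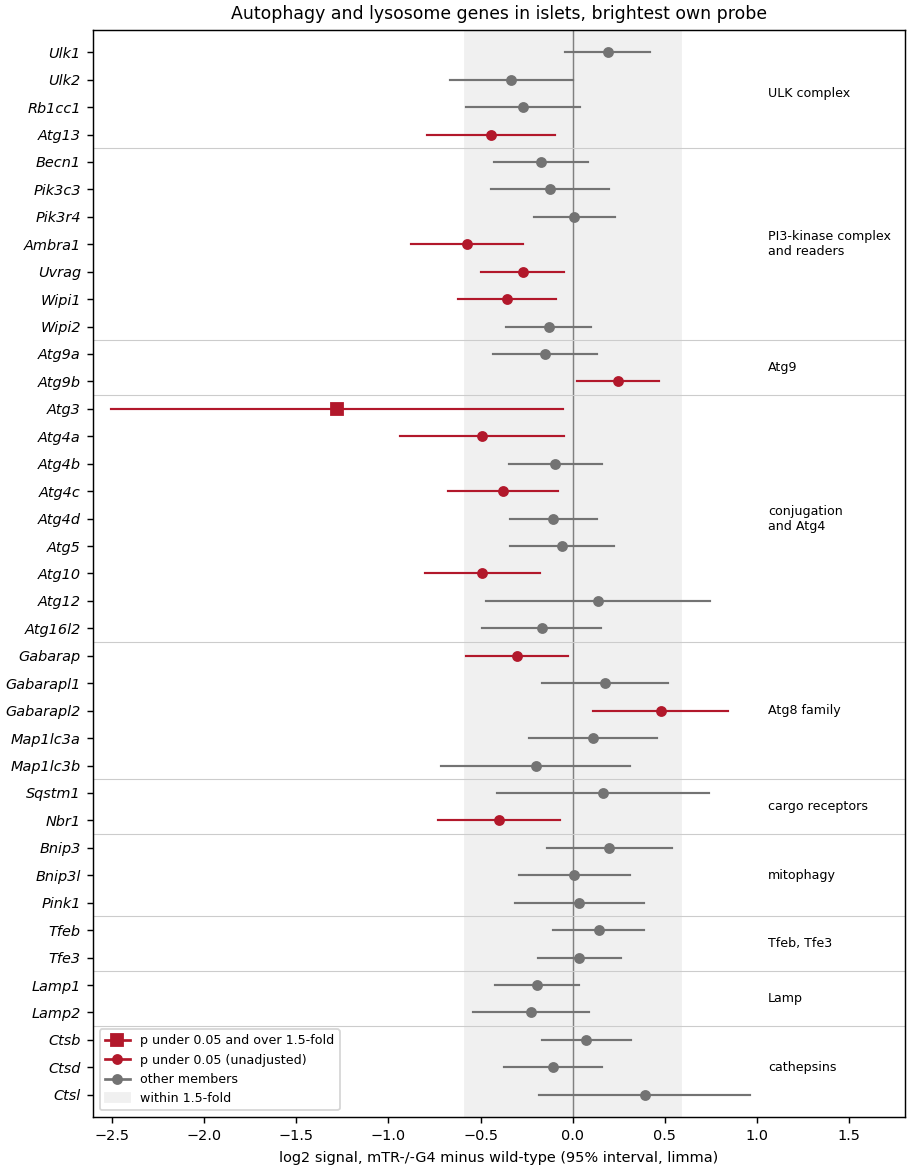
Difference in log2 signal, mTR-/-G4 minus wild-type, for the brightest own probe of each of the 39 measured members, with the 95% interval from limma (n = 3 each), ordered by role. Atg3 (square) is the single member past both 1.5-fold and p, and the intervals of the lysosomal genes at the bottom all include 0.

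Samples also differed in cell type markers and in the range of their signal. Whether these differences bear on the counts above was not established. Acinar markers, of which 18 of 25 were measured, averaged 10.55, 9.99 and 9.62 in mTR-/-G4 samples a, b and c, against 9.06, 8.17 and 8.05 in wild-type samples a, b and c (mean log2 signal), and 17 of the 18 passed the study's threshold upward while Bhlha15 passed it downward. Islet endocrine markers averaged 11.50 ± 0.065 in mTR-/-G4 and 11.64 ± 0.076 in wild-type islets (SD, n = 3 each), with 0 of 13 past the threshold. All mTR-/-G4 means of these markers lay below all wild-type means, and their median difference was -0.14. Nkx6-1 (-0.33) and G6pc2 (-0.28) were lower by p in limma, no other passed, and Ppy lay higher (0.06). Leukocyte and macrophage markers averaged 5.55 ± 0.006 in mTR-/-G4 and 5.45 ± 0.324 in wild-type islets, also with 0 of 13 past the threshold. Of the endothelial markers 3 of 9 were lower, of the duct markers 1 of 4 was higher, and of the stellate and fibroblast markers 0 of 7 passed. The interquartile range of an array's signal was 2.05 to 2.56 in mTR-/-G4 samples and 2.63 to 2.79 in wild-type samples, smallest in mTR-/-G4 b. In these bulk samples, fewer cells of a type and less RNA per cell cannot be told apart.

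mTR-/-G4 b held the lowest value of the 6 samples in 24 of the 39 members. The share of all genes lowest in this sample was not counted. Its median member lay 0.25 below the wild-type mean (log2), while those of mTR-/-G4 a and c lay 0.03 and 0.07 below it. For genes above the median signal the same shift was -0.16 in mTR-/-G4 b, -0.003 in a and -0.02 in c. For all named genes it was 0.11 in mTR-/-G4 b, 0.06 in a and 0.08 in c. Without mTR-/-G4 b, 8 members (20.5%) were lower and 3 (7.69%) higher by p, where 5.72% of all genes were lower and 9.07% higher, and the median difference was -0.03 for the members and 0.08 for all genes. With all samples quantile-normalized again the median difference was -0.01 for the members and 0.02 for all genes, with 8 members (20.5%) lower and 5 higher, where 7.87% of all genes were lower and 8.53% higher. The wild-type samples mattered as well. Without wild-type c, 3 members were lower by p (Ambra1, Atg10 and Wipi1) and 0 higher in limma, and these 7.69% were near the 5.18% of all genes that were lower. Without wild-type b, 4 were lower (the same 3 and Nbr1, 10.3%), against 4.43% of all genes, and 1 was higher (Gabarapl2). In these settings the shares of all genes were not limited to bright genes, which leaned downward with all samples in.

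**Figure D2:**
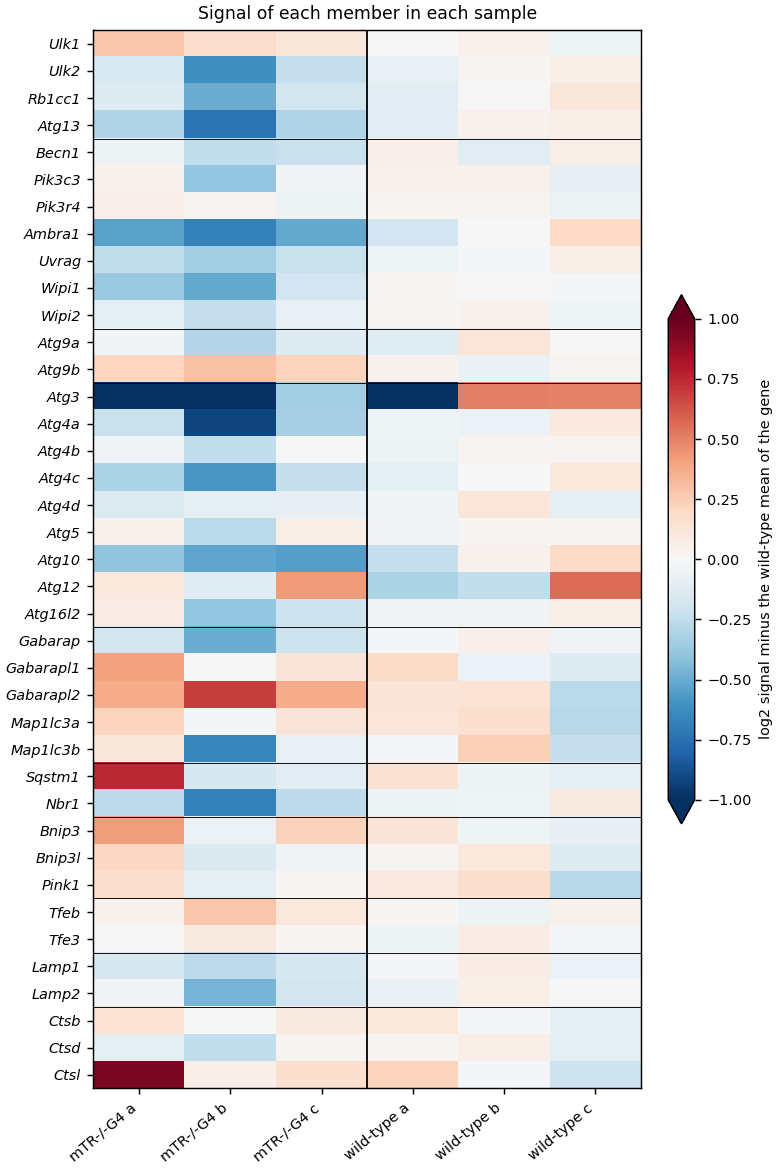
Log2 signal of each of the 39 members in each sample, minus the mean of the 3 wild-type samples of that gene, with rows ordered by role. The column of mTR-/-G4 b is the bluest, and Sqstm1 and Ctsl stand out only in mTR-/-G4 a.

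In the ULK complex, Atg13, the adaptor that ties the Ulk kinases to Rb1cc1, was lower. Its brightest probe (6888779) had log2 signals of 9.65, 9.20 and 9.65 in mTR-/-G4 islets, against 9.84, 9.98 and 10.01 in wild-type islets. The groups did not overlap, and mTR-/-G4 b was the lowest. The difference was -0.45 (SE 0.15, adjusted p = 0.174, limma), 1.36-fold lower. Of the members with several probes, Atg13 was the one with every probe lower by p. The second (6888780) read 8.37, 6.65 and 8.33 in mTR-/-G4 islets, against 9.11, 8.96 and 9.66 in wild-type islets, a difference of -1.46 (SE 0.46, adjusted p = 0.168, limma), past the study's threshold. The sample b again gave its lowest value, without any overlap between groups. The third probe differed by -0.47 (adjusted p = 0.167).

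The other members of this complex did not pass. Ulk1, the kinase that starts autophagy, was at 8.40, 8.30 and 8.23 in mTR-/-G4 islets, against 8.13, 8.16 and 8.08 in wild-type islets, with a difference of 0.19 (adjusted p = 0.263). Its relative Ulk2 lay the other way, at 7.39, 6.92 and 7.30 in mTR-/-G4 islets, against 7.46, 7.55 and 7.59 in wild-type islets (difference -0.33, adjusted p = 0.218). Neither overlapped between genotypes. Rb1cc1, the scaffold also known as FIP200, gave no single direction, since its brightest probe differed by -0.27 (adjusted p = 0.249) and its other probes by 0.28, which passed by p (adjusted p = 0.184), and by 0.23.

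In the Vps34 lipid kinase complex and the readers of its product, 3 of 7 members were lower by p. This was so for 7.96% of all genes and 13.9% of genes above the median signal. A group of 7 genes is too small to be set apart by such a count. Ambra1, which binds Beclin 1 and promotes its activity, had the smallest p of all members. It measured 6.21, 6.07 and 6.23 in mTR-/-G4 islets, against 6.55, 6.74 and 6.94 in wild-type islets. All mTR-/-G4 samples lay below all wild-type samples. The gap was wider than the spread among the mTR-/-G4 samples but narrower than that among the wild-type samples. The difference was -0.57 (SE 0.13, adjusted p = 0.116, limma), or 1.49-fold, just short of the fold the study required.

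Wipi1, which binds phosphoinositide 3-phosphate on the growing membrane, measured 7.40, 7.26 and 7.58 in mTR-/-G4 islets, against 7.79, 7.77 and 7.75 in wild-type islets. The wild-type samples had an SD of 0.019, and none of the mTR-/-G4 samples reached them (difference -0.36, SE 0.11, adjusted p = 0.167, limma). Uvrag, a Beclin 1 partner in autophagosome maturation, was at 6.01, 5.91 and 6.04 in mTR-/-G4 islets, against 6.21, 6.25 and 6.32 in wild-type islets. Its groups were apart as well (difference -0.27, SE 0.10, adjusted p = 0.185, limma), while its second, dim probe differed by -0.07 (adjusted p = 0.796).

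The core of that complex showed smaller differences, none of which passed. Becn1, which encodes Beclin 1, differed by -0.17 (95% interval -0.43 to 0.08), Pik3c3, the kinase Vps34 itself, by -0.12 (-0.44 to 0.20), and Pik3r4, its regulatory subunit, by 0.01 (-0.21 to 0.23). Wipi2, needed to recruit the conjugation machinery, differed by -0.13 (-0.36 to 0.10).

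Of the Atg9 proteins, which deliver membrane in vesicles, Atg9a differed by -0.15 (95% interval -0.43 to 0.13) and Atg9b was higher. Atg9b measured 4.69, 4.78 and 4.71 in mTR-/-G4 islets, against 4.53, 4.42 and 4.51 in wild-type islets. The groups did not overlap (difference 0.24, SE 0.09, adjusted p = 0.1995, limma). This was the one member below the median signal of all probes, 5.14, and dim genes leaned upward on these arrays. After quantile normalization its difference was 0.03 and no longer passed by p. It also no longer passed when any sample but mTR-/-G4 b was left out.

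Conjugation enzymes and Atg4 proteases held 4 of the 10 lower members, and 9 of the 39 measured. Counts this small do not set this role apart from the others. Atg3, the E2-like enzyme that joins Atg8 proteins to lipid and whose promoter is shown above, fell by 1.28 on the log2 scale in mTR-/-G4 islets (SE 0.52, 95% interval -2.50 to -0.05, adjusted p = 0.208, limma), 2.43-fold. Its single probe (6841176) read 4.74, 4.55 and 6.04 in mTR-/-G4 samples a, b and c, against 5.39, 6.89 and 6.88 in wild-type samples a, b and c. The genotypes overlapped, since wild-type a lay below mTR-/-G4 c. Wild-type a was the wild-type sample with the most acinar marker signal and mTR-/-G4 c the mutant sample with the least. With that signal as a covariate the difference was 1.05 and did not pass. Acinar signal did not overlap between genotypes, so this fit cannot decide whether it bears on Atg3, which was not tested otherwise. Without wild-type b, wild-type c, mTR-/-G4 a or mTR-/-G4 b the difference was -1.03, -1.03, -1.09 or -0.9999, and Atg3 no longer passed by p. With all samples it also did not pass in the methods' t-test (unadjusted p = 0.135).

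Atg10, the E2-like enzyme that joins Atg12 to Atg5, measured 6.71, 6.57 and 6.55 in mTR-/-G4 islets, against 6.87, 7.14 and 7.29 in wild-type islets. It did not overlap between genotypes, and the wild-type samples varied more than the mutant ones. The difference was -0.49 (SE 0.13, adjusted p = 0.143, limma), 1.40-fold lower.

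Among the Atg4 proteases, which trim Atg8 proteins before conjugation, Atg4c measured 6.03, 5.76 and 6.11 in mTR-/-G4 islets, against 6.25, 6.34 and 6.45 in wild-type islets. The highest mutant sample lay below the lowest wild-type one (difference -0.38, SE 0.13, adjusted p = 0.177, limma). Atg4a read 6.99, 6.29 and 6.88 in mTR-/-G4 islets, against 7.17, 7.16 and 7.31 in wild-type islets on its brightest probe (difference -0.49, SE 0.19, adjusted p = 0.199, limma). The groups were apart, but its other probes differed by 0.06 and 0.26 and the mean of all its probes by -0.06, none of which passed by p. Without mTR-/-G4 b the brightest probe differed by -0.28 and still passed. Leaving out any wild-type sample ended the call. Atg4b and Atg4d differed by -0.10 each and had intervals within 1.5-fold.

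The remaining conjugation genes did not pass. Atg5, the partner of Atg12 in the E3-like complex, differed by -0.06 (95% interval -0.34 to 0.23), and Atg16l2, a relative of the subunit that places this complex on the membrane, by -0.17 (-0.49 to 0.16). Atg12, the ubiquitin-like protein itself, had a wide interval (difference 0.14, -0.47 to 0.74), since wild-type c read 7.64 and wild-type a and b 6.76 and 6.83.

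**Figure D3:**
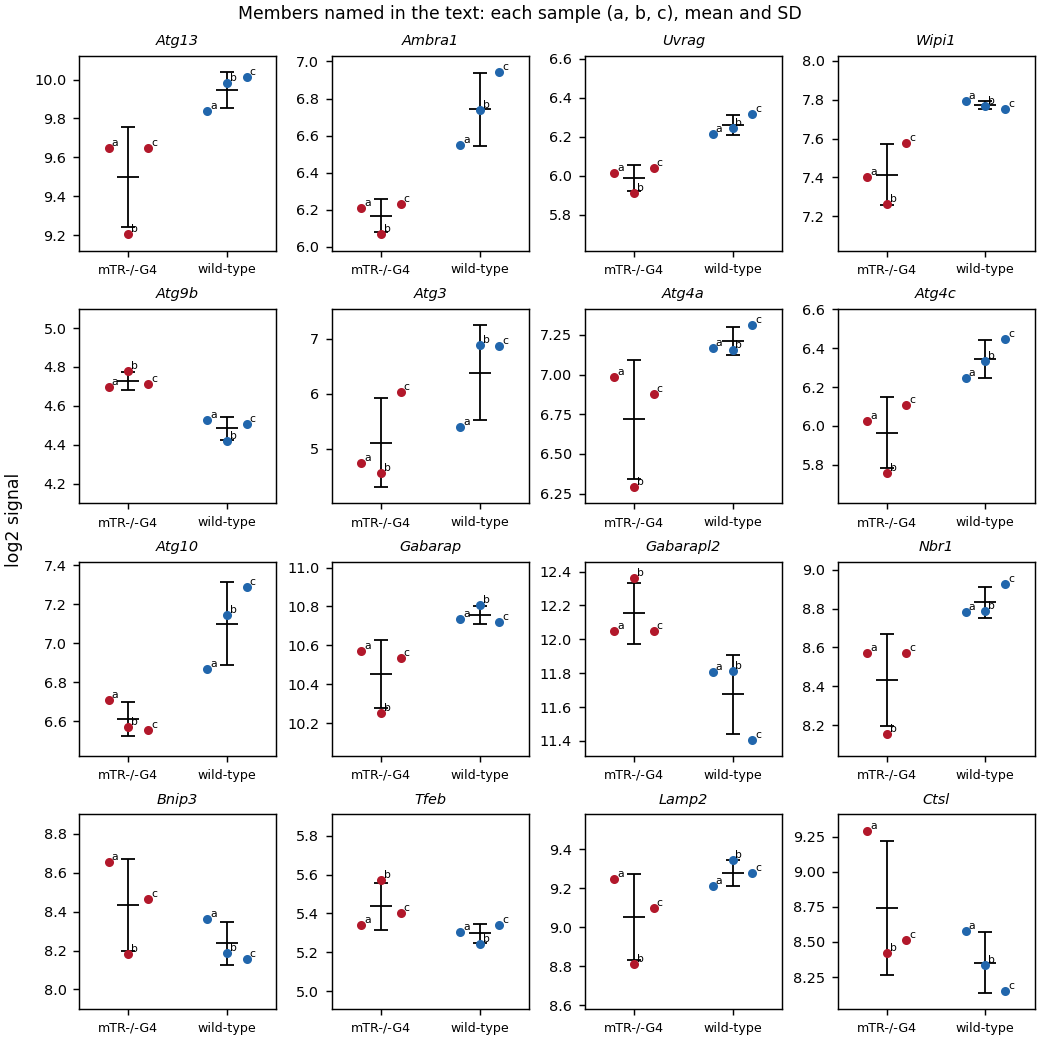
Log2 signal of 16 members in each sample (points labelled a, b and c), mTR-/-G4 on the left of each panel and wild-type on the right, with the mean and SD (n = 3 each); scales differ between panels. Ambra1, Atg10, Wipi1 and Nbr1 are separated by genotype, whereas Atg3, Bnip3, Tfeb, Lamp2 and Ctsl overlap.

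The Atg8 proteins coat the autophagosome and hold its cargo receptors, and their genes were mixed. Gabarap measured 10.57, 10.25 and 10.54 in mTR-/-G4 islets, against 10.74, 10.81 and 10.72 in wild-type islets. The groups were apart with mTR-/-G4 b lowest, and the difference was -0.30 (SE 0.12, adjusted p = 0.202, limma), 1.23-fold lower. After quantile normalization it was -0.07 and did not pass. Gabarap also no longer passed by p when any sample but mTR-/-G4 a was left out. Gabarapl2 measured 12.05, 12.36 and 12.05 in mTR-/-G4 islets, against 11.81, 11.81 and 11.41 in wild-type islets. Here mTR-/-G4 b was the highest sample and the groups were apart (difference 0.48, SE 0.16, adjusted p = 0.172, limma), 1.39-fold higher. The other 3 probes of Gabarapl2 differed by -0.07, 0.04 and 0.22 and the mean of all 4 by 0.17, and none of these passed by p.

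Gabarapl1 differed by 0.18 (95% interval -0.17 to 0.52) and Map1lc3a, an LC3 gene, by 0.11 (-0.24 to 0.46). Map1lc3b, which encodes the LC3B that is widely used to count autophagosomes, differed by -0.20 (95% interval -0.72 to 0.31) on its brightest probe and by 0.15 and 0.24 on the others, none of which passed.

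**Figure D4:**
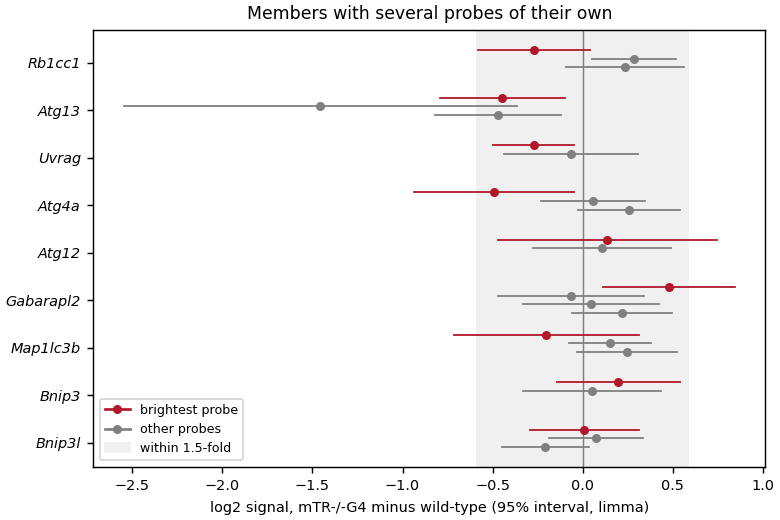
Difference in log2 signal, mTR-/-G4 minus wild-type, with the 95% interval from limma, for every own probe of the 9 members with more than 1 such probe, the brightest in red. For each of Atg13, Atg12, Bnip3 and Uvrag the probes lie on the same side of 0, while those of Rb1cc1, Atg4a, Gabarapl2, Map1lc3b and Bnip3l lie on both sides.

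Cargo receptors link ubiquitin-tagged material to Atg8 proteins. Nbr1 measured 8.57, 8.16 and 8.57 in mTR-/-G4 islets, against 8.78, 8.79 and 8.92 in wild-type islets. The groups did not overlap (difference -0.40, SE 0.14, adjusted p = 0.184, limma), and Nbr1 was 1.32-fold lower. Without mTR-/-G4 b the difference was -0.26 and still passed by p. Sqstm1, which encodes p62, was chosen for display once its values were known. It read 9.99, 9.08 and 9.13 in mTR-/-G4 islets, against 9.39, 9.19 and 9.14 in wild-type islets. One sample, mTR-/-G4 a, stood above the rest, which overlapped. The difference was 0.16 (adjusted p = 0.673, limma) with all samples and -0.13 without mTR-/-G4 a.

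None of the 3 mitophagy genes passed, and the 95% interval of each lay within 1.5-fold. By p, 22.1% of all genes passed, so 0 of 3 does not set these genes apart. Bnip3, a mitochondrial receptor for Atg8 proteins, had the largest difference, with 8.66, 8.18 and 8.47 in mTR-/-G4 islets, against 8.36, 8.19 and 8.16 in wild-type islets. The samples overlapped, since mTR-/-G4 b lay among the wild-type ones (difference 0.20, 95% interval -0.14 to 0.54). Without mTR-/-G4 b the difference was 0.32 and passed by p, and without mTR-/-G4 a it was 0.09. Bnip3l, a related receptor, differed by 0.01 (-0.29 to 0.31) and Pink1, the kinase that marks damaged mitochondria, by 0.04 (-0.31 to 0.39). The other probes of Bnip3l differed by 0.07 and -0.21, and neither passed by p. On the latter all mTR-/-G4 samples lay below all wild-type samples.

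None of the 7 lysosomal members passed by p, and the intervals of 6 of them, all but Ctsl, lay within 1.5-fold. Among genes above the median signal 20.2% passed by p and 66.7% had such an interval. So few members are not set apart by these counts. Tfeb measured 5.34, 5.57 and 5.40 in mTR-/-G4 islets, against 5.31, 5.24 and 5.34 in wild-type islets, overlapping only in mTR-/-G4 a and wild-type c (difference 0.14, 95% interval -0.11 to 0.39). Tfe3 differed by 0.03 (-0.19 to 0.26). These are transcript levels, and the location of Tfeb in the cell, by which its activity is known to be controlled, was not measured.

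Lamp1 and Lamp2 encode the abundant glycoproteins of the lysosomal membrane. Lamp2 measured 9.25, 8.81 and 9.10 in mTR-/-G4 islets, against 9.21, 9.35 and 9.28 in wild-type islets. The groups overlapped through mTR-/-G4 a (difference -0.23, 95% interval -0.54 to 0.09). Without mTR-/-G4 a the difference was -0.32 and passed by p, and without mTR-/-G4 b it was -0.10 and did not. Lamp1, with 4 CACGTG matches in its promoter, read 9.22, 9.12 and 9.21 in mTR-/-G4 islets, against 9.37, 9.45 and 9.32 in wild-type islets. It did not overlap between the genotypes, but the difference of -0.19 (-0.42 to 0.03) did not pass.

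Of the cathepsins, the proteases of the lysosome, Ctsb differed by 0.07 (95% interval -0.17 to 0.32) and Ctsd, whose promoter carries TCACGTGA, by -0.11 (-0.37 to 0.16). Ctsl measured 9.29, 8.42 and 8.52 in mTR-/-G4 islets, against 8.58, 8.34 and 8.15 in wild-type islets. The highest value was that of mTR-/-G4 a, the sample with the most acinar marker signal, and the others overlapped. The difference was 0.39 (-0.18 to 0.96), and 0.11 without that sample. With acinar marker signal as a covariate it was -0.57. Neither of these passed by p. Whether acinar signal bears on the value of Ctsl in mTR-/-G4 a was not tested.

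Further genes of the pathway were read from wider lists. Of 32 other autophagy genes measured, 1 passed the study's threshold, downward. By p alone 4 were lower (Atg2b, Wdfy3, Trim30a and Mitf, 12.5%) and 2 higher (Atg101 and Tfec, 6.25%). These shares were near those of genes above the median signal, 13.9% lower and 6.33% higher. Atg2b, a lipid transfer protein of the growing membrane, measured 10.35, 8.94 and 10.12 in mTR-/-G4 islets, against 10.65, 11.07 and 11.34 in wild-type islets. The groups were apart, and mTR-/-G4 b was far the lowest (difference -1.22, SE 0.37, adjusted p = 0.162, limma). Without mTR-/-G4 b the difference was -0.79 and still passed.

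Mitf, a transcription factor of the Tfeb family, was picked out after its values were seen. It measured 6.67, 6.87 and 6.94 in mTR-/-G4 islets, against 7.25, 7.38 and 7.50 in wild-type islets. The gap between the groups exceeded the spread within either (difference -0.55, SE 0.12, adjusted p = 0.115, limma), and Mitf was 1.46-fold lower, short of the fold the study required.

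Of 42 lysosomal hydrolases 1 passed the study's threshold, upward, and 0 others passed by p. This was Galns, which removes sulfate from keratan sulfate and chondroitin sulfate, at 8.15, 8.11 and 8.26 in mTR-/-G4 islets, against 7.31, 7.72 and 7.35 in wild-type islets. The groups were far apart (difference 0.71, SE 0.13, adjusted p = 0.0972, limma). Galns kept its direction with p under 0.05 in all 15 other settings tried, including the one with acinar marker signal as a covariate (difference 0.96). Of 27 lysosomal membrane and transport proteins 0 passed the threshold, and by p alone Scarb2 and Abcb9 were lower and Lamp3 was higher. Of 23 subunits of the vacuolar ATPase, which acidifies the lysosome and the insulin granule, 0 passed by either measure in limma, and 20 had an interval within 1.5-fold. By p in either direction, 2.38% of the hydrolases and 11.1% of the membrane and transport proteins passed. This was so for 22.1% of all genes and 20.2% of genes above the median signal. The median differences were -0.07 for the other autophagy genes, -0.05 for the hydrolases, -0.16 for the membrane and transport proteins and -0.12 for the ATPase subunits.

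The lower members that held most widely were Ambra1 and Atg10, each of which kept its direction with p under 0.05 in 14 of 15 other settings. Wipi1 did so in 13, Atg13 and Nbr1 in 12, and Atg3 in 6. In the setting with acinar marker signal as a covariate 0 of the 39 members passed by p in limma, with adjusted p-values of 0.786 or more, where 1.86% of all genes were higher and 2.77% lower by p. The median SE of the members was then 0.29, against 0.13 without the covariate, while their median difference was -0.20, against -0.12. Some differences stayed about as large, such as -0.56 for Atg4a, -0.34 for Gabarap, -0.36 for Nbr1 and -0.29 for Wipi1, and others were smaller, such as -0.27 for Ambra1 and -0.25 for Atg10. The acinar signal of the genotypes does not overlap, and such a fit separates genotype from acinar signal only through the spread within each genotype.

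**Figure D5:**
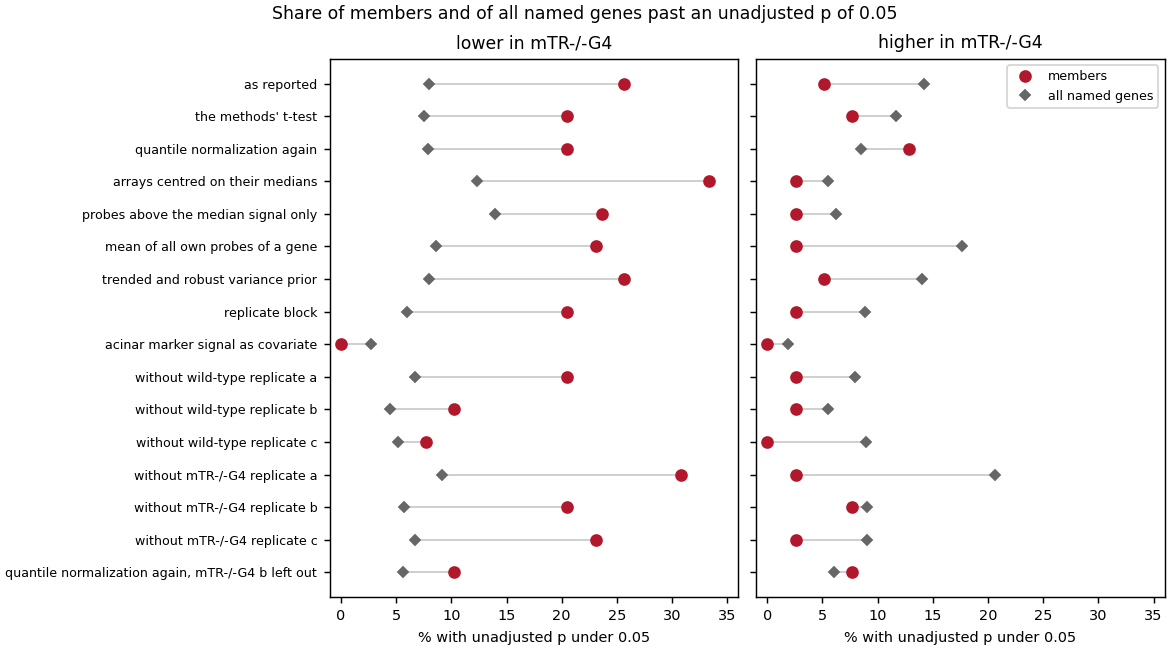
Percent of the members (red circles) and of all named genes (grey diamonds) with an unadjusted p under 0.05 in each setting, lower in mTR-/-G4 on the left panel and higher on the right. The share of lower members exceeds that of all genes in every setting shown except the one with acinar marker signal as a covariate, where it is 0. Outside the setting with probes above the median signal, all named genes are not matched to the members for signal, and bright genes leaned downward.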

How the data were processed

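The authors deposited 1 table of log2 signals of 34502 probes (transcript clusters) on 6 arrays, which they had normalized as 1 set with the Robust Multichip method in the Partek software (version not given in the sources). The build named in the submitters' processing notes is mm9. Array detection calls and raw intensities were not used, and the number of arrays limits the precision. The platform annotation gives 1 gene for 25362 probes, several for 2238 and none for 6902. Each gene is read from the brightest probe of its own by the mean of all samples, and levels are not compared between genes. Symbols were updated through RefSeq gene tables, used for names only, and promoter sequences are from RefSeq (GRCm38.p6).

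Genotypes were compared over all probes with limma 3.58.1 (lmFit and eBayes) in R 4.3.3, with no filter and no covariate, and p-values were adjusted by Benjamini-Hochberg over all probes. The study's threshold was a change above 1.5-fold with p under 0.05. The test was also run on simulated arrays with independent noise. These held no array-wide shift and no acinar difference, so the check does not cover such features. Each sample was taken as 1 mouse; the labels do not say so, and otherwise p-values measure only the spread between these samples. For a mean over markers or an array's range, an exact permutation test of 3 against 3 cannot give a p below 0.1, so none of these is called different; it gave p = 0.1 for the acinar and islet endocrine markers and for the interquartile range, 0.7 for leukocytes and macrophages, 0.2 for duct and endothelial cells and 0.8 for stellate cells and fibroblasts (two-sided).

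Values in every sample are given for members with p under 0.05, members with an own probe past the threshold, the member with the largest difference in each role, and the 4 largest changes past the threshold in each wider list. Other members shown so were added after their values were seen. The members and lists were chosen with earlier results of these data known. Settings tried beside this were a further quantile normalization, arrays centred on their medians, probes above the median signal, the mean of all own probes, a variance prior with trend and robust fit, the methods' t-test, acinar marker signal as a covariate, the replicate letter as a block, and leaving out each sample. Quantile normalization of the 5 arrays other than mTR-/-G4 b was added after the data were seen.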

Additional observations from a re-analysis of the deposited data

How the results depend on the processing

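At the study's threshold 0 members were higher and 1 was lower. Quantile normalization again gave 1 higher (Gabarapl2) and 0 lower. The methods' t-test, the probes above the median signal, the acinar covariate and quantile normalization without mTR-/-G4 b each gave 0 lower, the mean of all own probes 2 (Atg3 and Atg13), and centred arrays 4. With 1 sample left out the count was 0 to 3. It was 0 without wild-type b, wild-type c or mTR-/-G4 b, 2 without mTR-/-G4 a or mTR-/-G4 c, and 3 without wild-type a. By p alone 12 members passed; 0 did with the acinar covariate, 7 with quantile normalization without mTR-/-G4 b, and 3 to 13 with 1 sample left out, the lowest counts being 3 without wild-type c and 5 without wild-type b. The median difference of the members was -0.12, and it was -0.014 after quantile normalization, -0.019 after the same without mTR-/-G4 b, -0.22 on centred arrays, -0.20 with the acinar covariate, and -0.152 to -0.034 with 1 sample left out, nearest to 0 without mTR-/-G4 b. The median of all named genes was 0.10, and 0.02 after quantile normalization, and the cause of these shifts was not tested. On centred arrays 33.3% of the members were lower by p, where 12.3% of all genes were. With 1 sample left out 7.69% to 30.8% of the members were lower by p, where 4.43% to 9.20% of all genes were.

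With the acinar covariate the difference turned to 1.05 for Atg3, -0.17 for Bnip3, -0.57 for Ctsl and -0.72 for Sqstm1, none with p under 0.05. With 1 sample left out that of Sqstm1 ranged between -0.13 and 0.32. No adjusted p under 0.05 was found for any member in the settings run, and 12 members had an unadjusted one.

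With the replicate letter as a block, 9 members passed by p (8 lower and 1 higher), all of them among the 12. Uvrag, Gabarap and Atg9b were lost. The lower ones were 20.5% of the members, where 5.94% of all genes were lower and 8.86% higher. The correlation of deviations was 0.04 for a, -0.16 for b and 0.11 for c. With so few samples this cannot decide whether the letters pair them. Mean acinar and duct marker signals fell from a to b to c in both genotypes. The unadjusted p of Atg3 in limma was 0.006 with the block and 0.043 without it.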
